A study of Mus musculus with 6 samples.

Results

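The opioid peptides and receptors were 7 genes of the mouse hypothalamus, taken as the rows of the count table with their symbols. The 3 peptide precursors were Penk, Pdyn and Pnoc, and the 4 receptors were Oprm1, Oprd1, Oprk1 and Oprl1. All 7 were present among 18204 genes. They were measured by Drop-seq, a droplet method that labels the end of every captured transcript with the barcode of its cell and with a molecular identifier (UMI), so that a UMI stands for a captured molecule. The 6 libraries came from hypothalami of C57BL/6J mice aged 8 weeks. KO1, KO2 and KO3 carried the genotype IDOL knockout, which lacks the ubiquitin ligase encoded by Mylip, and WT1, WT2 and WT3 were wild type. The labels gave neither the design of the deleted allele nor the number of animals behind a library, so p-values measure the spread between libraries, which may be technical. The genotypes were mixed over 2 days of library preparation, and no label tied a library to its day.

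Opioid peptides are cut from larger precursors in dense-core vesicles and act on receptors that couple to inhibitory G proteins, which lower cyclic AMP, open potassium channels and close calcium channels. Penk encodes the enkephalins, which act mainly on the delta receptor (Oprd1) and the mu receptor (Oprm1). Pdyn encodes the dynorphins and neoendorphins, ligands of the kappa receptor (Oprk1). Pnoc encodes nociceptin, the ligand of the related receptor Oprl1. In the hypothalamus these peptides are known from neurons that control water balance, reproduction, feeding and the stress response.

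The part of each precursor that gives the family its name is the start of the peptide, Tyr-Gly-Gly-Phe in the classical opioids and Phe-Gly-Gly-Phe in nociceptin. The coding sequences show how the members compare, and 39 bases from the start of such a core are given below, 5′ to 3′ on the coding strand, with the 12 bases of the core in capitals. They were read from the GENCODE M21 transcripts (GRCm38), and positions count from the first base of the start codon. The set shown is the start of the first Penk core, the Pdyn cores of dynorphin A and dynorphin B, and the Pnoc core.
Penk, bases 298 to 336: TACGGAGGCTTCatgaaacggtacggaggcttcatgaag
Pdyn, bases 604 to 642: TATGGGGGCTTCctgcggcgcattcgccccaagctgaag
Pdyn, bases 661 to 699: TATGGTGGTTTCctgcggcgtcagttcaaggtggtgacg
Pnoc, bases 421 to 459: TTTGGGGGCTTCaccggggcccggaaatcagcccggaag
The Penk coding sequence of 804 bases held 7 in-frame Tyr cores, the Pdyn coding sequence of 744 bases held 3, and the Pnoc coding sequence of 636 bases held none and 1 Phe core. The Penk window shows a Met-enkephalin followed after a basic pair of residues by the next core, in lower case. The Pdyn windows begin dynorphin A and dynorphin B, in that order, and shared 24 of 39 bases. Of 21578 mouse coding sequences searched in frame on the coding strand, 0.329% held a Tyr core and 0.496% a Phe core. At least 3 Tyr cores were found in 4 of them, Penk, Pdyn, Krtap19-2 and Krtap19-4, so these letters alone do not mark a gene as an opioid precursor.

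On GRCm38, Penk lies at chr4:4133531-4138819, Pdyn at chr2:129686565-129699844, Pnoc at chr14:65400673-65425472 and Oprd1 at chr4:132110726-132144486, all on the minus strand. Oprm1 at chr10:6758506-7038198, Oprk1 at chr1:5588466-5606131 and Oprl1 at chr2:181715016-181720985 are on the plus strand. Oprm1 overlaps 152403 bases of Ipcef1 on the other strand, which has its own row in the table. The strand counted was not stated, so the Oprm1 counts are uncertain. Penk overlaps another transcript, A830012C17Rik, on the other strand over 499 bases.

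Of 13994 barcodes, 9333 cells were kept, with 1466, 1865 and 1946 in KO1, KO2 and KO3 and 1871, 1036 and 1149 in WT1, WT2 and WT3. No barcode was shared between libraries among the kept cells. The kept cells of a library held between 1514439 and 3644549 UMIs. Neurons, named from clusters formed without the opioid genes, numbered 3074, with 544, 654 and 442 in the KO libraries and 804, 333 and 297 in the WT libraries. Median UMIs per neuron were 1770, 1256 and 1092.5 in the KO libraries, against 1633, 1409 and 1201 in the WT libraries. Mylip had 2, 0 and 0 UMIs in the KO libraries, against 68, 27 and 43 in the WT libraries, so each library matched its label. Levels below are in CPM, the UMIs of a gene scaled to a common total of all UMIs of the named cells. UMIs count transcript ends and are not scaled by gene length, so levels are compared between cells and libraries for each gene and not between genes.

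Every opioid gene was found mainly in neurons. Neurons held 96.3% of the Pdyn UMIs (707 UMIs in 285 cells), 94.3% of the Pnoc UMIs (460 in 272 cells), 91.9% of the Oprk1 UMIs (386 in 259 cells) and 90.1% of the Oprl1 UMIs (507 in 433 cells). The share was 77.5% for Penk, with 960 UMIs in 278 neurons. Oprm1 and Oprd1 were scarce, with 22 UMIs in 20 neurons and 12 UMIs in 11 neurons, of which neurons held 91.7% and 92.3%.

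In edgeR's quasi-likelihood test of neurons over all other cells, with library as a block, Pdyn was 25.5-fold higher in neurons (log2 fold change 4.67 ± 0.23 SE, adjusted p = 5.9e-12). The log2 differences were 4.15 ± 0.21 for Pnoc, 3.60 ± 0.24 for Oprk1, 3.33 ± 0.23 for Oprl1 and 1.88 ± 0.20 for Penk, whose edgeR adjusted p-values were 5.4e-12, 2.4e-10, 3.9e-10 and 1.9e-07. Thus 5 of the 5 opioid genes that passed the filter on low counts were higher in neurons, where 35.9% of the 11210 genes tested were. Oprm1 and Oprd1 did not pass that filter. Neurons were deeper than most other cells, with a median of 1452 UMIs, against 1077 in oligodendrocytes, 624.5 in endothelial cells and 608 in microglia.

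The share of neurons with a UMI was 9.04% for Penk (exact 95% binomial interval 8.05% to 10.1%, counting error only). The share was 0.315% in oligodendrocytes, 0.521% in endothelial cells and 0.512% in microglia, 3 classes that served as the background level. Oprl1 UMIs were in 14.1% of neurons (12.9% to 15.4%), 0.391% of endothelial cells and none of 1268 oligodendrocytes, which allows a share of up to 0.237%. After each cell was thinned to 500 UMIs, which left out 344 neurons, Penk was in 4.25% of neurons and Oprl1 in 3.70%.

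Penk also stood well above background outside neurons, in tanycytes, the glial cells that line the floor of the third ventricle. Tanycytes averaged 164 ± 72.1 Penk CPM and neurons 138 ± 40.0 (SD, n = 6 libraries). Of 435 tanycytes, 79 held 179 Penk UMIs, a share of 18.2% (14.7% to 22.1%), and 7.88% had a UMI after thinning. Clusters of tanycytes held between 1317 and 4201 CPM of summed neuron markers, against 24232 CPM in neurons. The tanycyte cluster with the most neuron markers, led by Frzb, also had the most Penk, with 52 UMIs in 26 of 83 cells (499.9 CPM). The other tanycyte clusters had 87.8 to 201 Penk CPM. Among them, the Scn7a-led cluster had 4130 CPM of neuron markers and 142 CPM of Penk. The part of these markers in the Penk level was not tested. The deepest tanycyte cluster, 60 cells with a median of 6845 UMIs, held 64 of these Penk UMIs, and without it 65 of 375 tanycytes were positive. By library, tanycyte Penk was 64.4, 170 and 220 CPM in KO1, KO2 and KO3, against 177, 95.9 and 254 CPM in WT1, WT2 and WT3, and the genotypes overlapped. A cluster with no name, led by Prg4, Nov and Mgp, held 65 Penk UMIs in 12 of its 81 cells, a pooled level of 318 CPM. Of these UMIs, 36 were in KO3, 27 in WT2 and 2 in KO2.

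Oprl1, the nociceptin receptor, was also found outside neurons, in oligodendrocyte precursor cells (OPC). OPC averaged 64.9 ± 28.6 Oprl1 CPM and neurons 74.6 ± 14.8 CPM (SD, n = 6 libraries). The 37 UMIs lay in 31 of 588 OPC (5.27%, 3.61% to 7.40%), whose median depth was 794 UMIs. At 500 UMIs a cell the shares were 3.51% of OPC and 3.70% of neurons. Oligodendrocytes and microglia had no Oprl1 UMI. Oprk1 was at 18.7 ± 6.14 CPM in tanycytes and 56.6 ± 4.88 CPM in neurons, with 20 UMIs in 16 tanycytes. The deepest tanycyte cluster held 13 of these UMIs, in 9 cells. Without that cluster tanycytes averaged 11.8 ± 9.91 CPM from 7 UMIs, with 0 in KO2 and KO3.

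**Figure D1:**
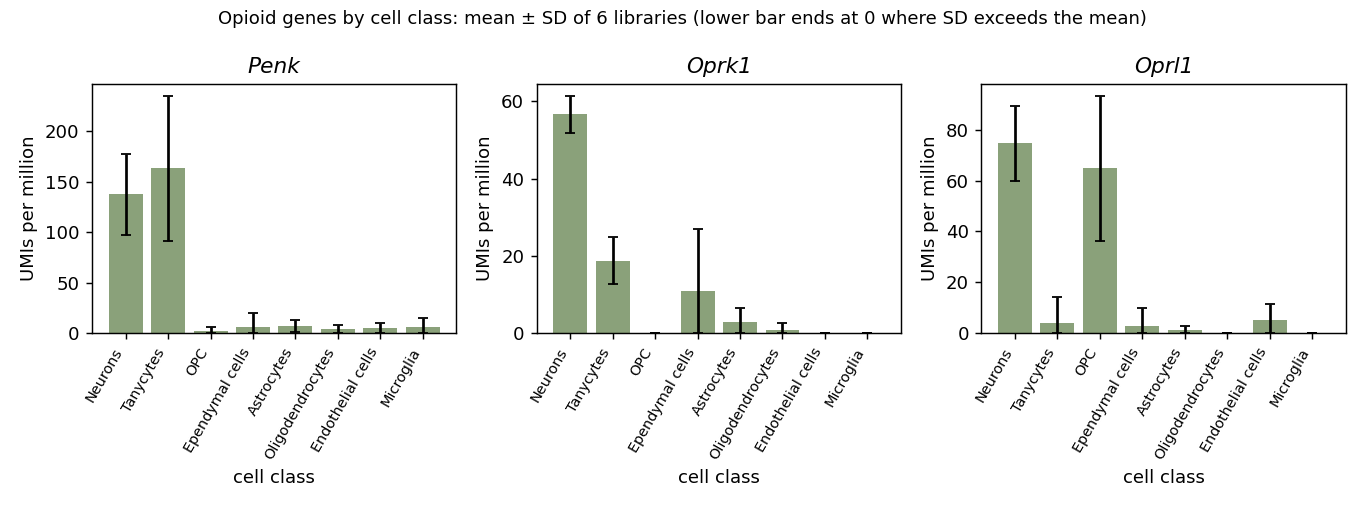
Levels of Penk, Oprk1 and Oprl1 in 8 cell classes, in CPM, as the mean (bar) and SD (whisker) of 6 libraries, each panel with its own axis from 0. Penk stands at 164 CPM in tanycytes and 138 CPM in neurons, Oprk1 at 18.7 CPM in tanycytes and 56.6 CPM in neurons, and Oprl1 at 64.9 CPM in OPC and 74.6 CPM in neurons.

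Neurons formed 17 clusters, each called here by its leading genes. The plot of opioid genes across neuron clusters shows where each gene was found. Clusters were formed from the same cells without the opioid genes, and their levels are given as a description.

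**Figure D2:**
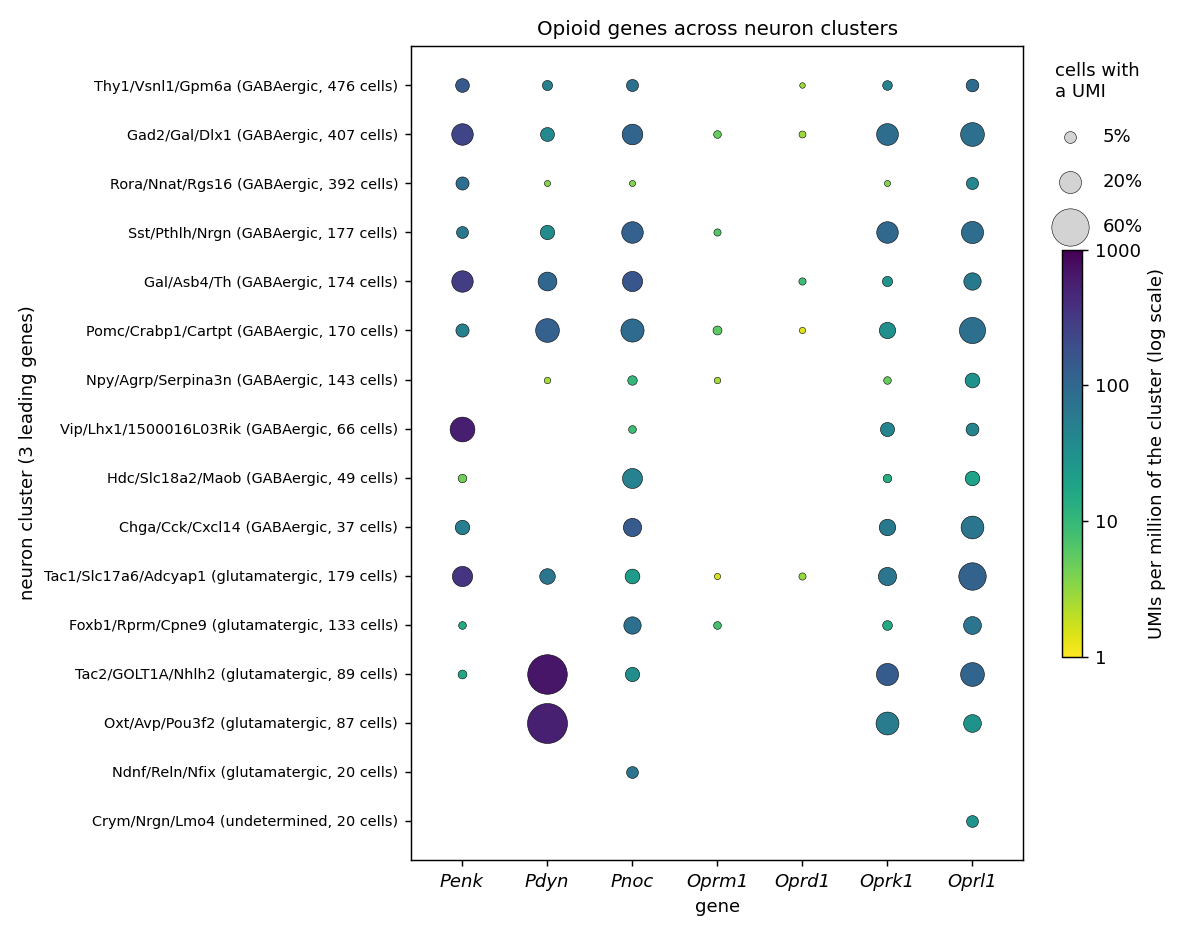
Each row is 1 of 16 neuron clusters with its 3 leading genes, transmitter markers and number of cells, and each column is an opioid gene. Circle area gives the share of cells with a UMI and colour the CPM of the cluster on a log scale. The largest circles are those of Pdyn in the Tac2-led and Oxt-led clusters, at 67.4% and 69.0% of cells.

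Pdyn was concentrated in a pair of small glutamatergic clusters. The cluster led by Tac2, the neurokinin B gene, held 156 Pdyn UMIs in 60 of 89 cells (678 CPM), and the cluster led by Oxt and Avp, the oxytocin and vasopressin genes, held 268 in 60 of 87 cells (548 CPM). Jointly these 176 cells held 424 of the 707 Pdyn UMIs, and 68.2% of them were positive, against 5.69% of all other neurons. Their median depth was 3355.5 UMIs, against 1400.5 in the other neurons. In the cells of both clusters, Pdyn was at 531, 451 and 628 CPM in KO1, KO2 and KO3, against 677, 411 and 416 CPM in WT1, WT2 and WT3. In all other neurons it was at 35.4, 49.2 and 44.2 CPM in the KO libraries, against 56.5, 46.0 and 32.4 CPM in the WT libraries. The levels of the genotypes overlapped in both sets of neurons, and every library had at least 411 CPM in the clusters and at most 56.5 CPM outside them. The clusters gave 43, 12 and 22 cells in KO1, KO2 and KO3, against 71, 22 and 6 in WT1, WT2 and WT3. The WT3 level in them is that of 14 UMIs in 6 cells, and the KO2 level that of 22 UMIs in 12 cells.

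Within the Oxt-led cluster, the pooled Pdyn level was higher in the cells with more vasopressin than oxytocin UMIs. Of the 73 such cells, 54 held Pdyn (74.0%, 655 CPM). Of 14 cells with more Oxt than Avp UMIs, 6 held 10 Pdyn UMIs (105 CPM). Of the 4 libraries with both sets, KO3, WT1 and WT2 had this direction and KO1, with 1 cell in the second set, had the other (444 CPM in the first set and 786 CPM in the second). Oprk1, the receptor of the dynorphins, was at 35.6 CPM in the first set and at 147 CPM in the second, each from 14 UMIs. The counts are small and KO2 and WT3 had no cell of the second set, so no test was made. Pdyn was also present in the Pomc-led cluster, in 23.5% of 170 cells (119 CPM), and in the cluster led by Gal, Asb4 and Th at 104 CPM. The Npy- and Agrp-led cluster held 1 Pdyn UMI in 143 cells.

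**Figure D3:**
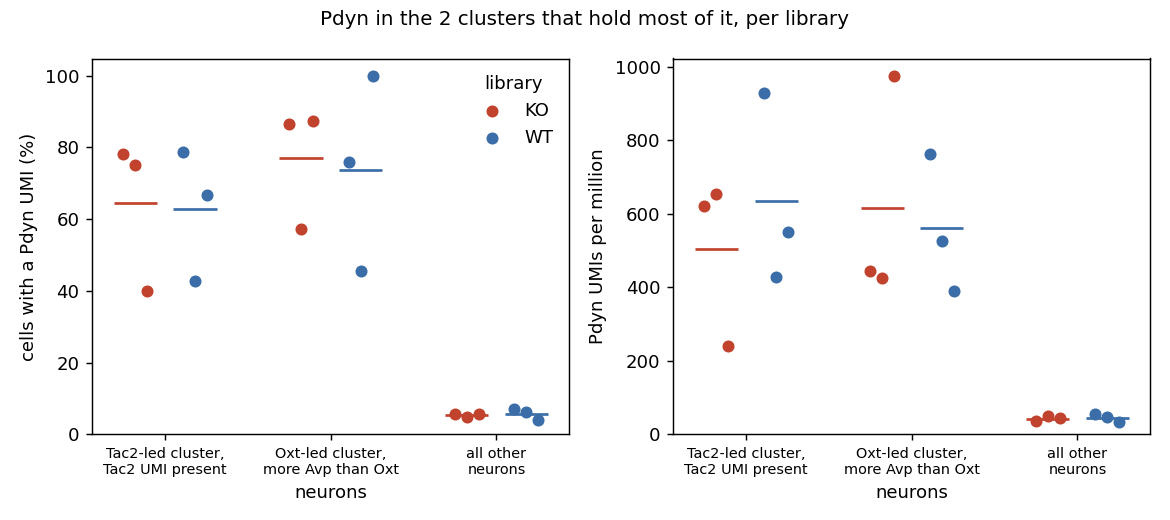
Share of cells with a Pdyn UMI (left, percent) and Pdyn level (right, CPM) per library, with KO left of WT and lines at the mean of 3 libraries, in cells of the Tac2-led cluster with a Tac2 UMI, cells of the Oxt-led cluster with more Avp than Oxt UMIs, and all neurons outside both clusters. Outside the clusters every library lies between 32.4 and 56.5 CPM, and the genotypes overlap in each set. Some points rest on few cells, with 4 in KO2 and 3 in WT3 for the Tac2-led set. The Oxt-led set has 7 cells in KO2 and 3 in WT3.

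Penk had a broader distribution. Its pooled level was 557 CPM in a cluster of 66 GABAergic cells led by Vip and Lhx1, 17 of them positive, 341 CPM in a glutamatergic cluster led by Tac1, Slc17a6 and Adcyap1, 294 CPM in the Gal-, Asb4- and Th-led cluster and 241 CPM in the cluster led by Gad2, Gal and Dlx1. In the 3 libraries with at least 10 cells of the Vip- and Lhx1-led cluster, Penk was at 504 and 189 CPM in KO1 and KO2, against 1298 CPM in WT1. Over 6 libraries, the Tac1-led cluster averaged 265 ± 233 CPM, the Gal-, Asb4- and Th-led cluster 275 ± 147 CPM and the Gad2-, Gal- and Dlx1-led cluster 239 ± 94.6 CPM (SD), so the order of all 4 was within the spread between libraries. The Gad2-, Gal- and Dlx1-led cluster held 342 of the 960 Penk UMIs in neurons, in 78 of 407 cells. No Penk UMI was found in the 143 cells of the Npy- and Agrp-led cluster or the 87 cells of the Oxt-led cluster, which allows shares of cells with a UMI of up to 2.10% and 3.45% and sets no limit on cells that express the gene.

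Pnoc was found mainly in GABAergic clusters, though not in all of them. It was at 156 CPM in the Gal-, Asb4- and Th-led cluster, 142 CPM in 37 cells led by Chga, Cck and Cxcl14, 119 CPM in the Sst-led cluster and 109 CPM in the Gad2-, Gal- and Dlx1-led cluster, which held 155 of its 460 UMIs. The Chga-led value rests on 21 UMIs in 5 cells, with 9 UMIs in the highest cell. In KO1, the only library with at least 10 cells of that cluster, Pnoc was at 92.4 CPM. In the Gal-, Asb4- and Th-led cluster the libraries were close, at 120, 205 and 130 CPM in KO1, KO2 and KO3 and 146, 166 and 146 CPM in WT1, WT2 and WT3. In the Sst-led cluster they ranged more widely, at 71.2, 125 and 101 CPM in the KO libraries and 170, 17.6 and 256 CPM in the WT libraries. The Pomc-led cluster had Pnoc in 22.4% of its cells at 90.9 CPM, and the glutamatergic Foxb1-led cluster in 12.0% at 80.4 CPM. The GABAergic clusters led by Rora, by Npy and Agrp, and by Vip and Lhx1 were low, at 3.67, 10.1 and 8.85 CPM. Pnoc and Penk were both at 0 UMIs in the Oxt-led cluster.

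Among the receptors, Oprk1 was at 139 CPM in the Tac2-led cluster, 101 CPM in the Sst-led cluster and 87.9 CPM in the Gad2-, Gal- and Dlx1-led cluster, where 80 of 407 cells had a UMI. The Tac2-led value rests on KO1 and WT1, with 17 and 14 of its 32 UMIs. The Sst-led cluster had Oprk1 in all libraries, at 71.2, 62.5 and 121 CPM in the KO libraries and 146, 88.1 and 128 CPM in the WT libraries. Oprk1 was nearly absent from the cluster led by Rora, Nnat and Rgs16, with 2 UMIs in 392 cells, and from the Npy- and Agrp-led cluster, with 2 UMIs in 143 cells. Oprl1 was at 113 CPM in the Tac1-led cluster, where 31.8% of cells were positive, 109 CPM in the Tac2-led cluster and 30.4 CPM in the Npy- and Agrp-led cluster. Of the 22 Oprm1 UMIs, 7 lay in the Gad2-, Gal- and Dlx1-led cluster, and of the 12 Oprd1 UMIs, 4 did, which is too few to order clusters by level.

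Each neuron was also classed by its own transmitter UMIs. GABA-marker neurons had a UMI of Gad1, Gad2 or Slc32a1 and none of Slc17a6 (1517 cells, median 1756 UMIs), and glutamate-marker neurons had a UMI of Slc17a6 and none of the other 3 (522 cells, median 2305 UMIs). Pdyn was at 27.2, 29.3 and 26.3 CPM in GABA-marker neurons of KO1, KO2 and KO3 and at 32.7, 14.6 and 23.7 CPM in those of WT1, WT2 and WT3. In glutamate-marker neurons Pdyn was at 241, 103 and 286 CPM in the KO libraries and 266, 200 and 89.8 CPM in the WT libraries, above GABA-marker neurons in 6 of 6 libraries. Pnoc had the opposite pattern, with 66.1, 129 and 87.5 CPM in GABA-marker neurons of the KO libraries and 105, 51.1 and 92.0 CPM in those of the WT libraries. In glutamate-marker neurons Pnoc was at 25.4, 37.2 and 23.8 CPM in the KO libraries and 24.4, 37.0 and 12.8 CPM in the WT libraries, lower in 6 of 6 libraries.

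In the edgeR test with library as a block, the log2 difference of GABA-marker over glutamate-marker neurons was -2.95 ± 0.18 for Pdyn (7.75-fold lower, adjusted p = 1.6e-13) and 1.75 ± 0.22 for Pnoc (3.37-fold higher, adjusted p = 8.2e-07). These were the 2 of 5 tested opioid genes that passed the test, where 7.50% of 6532 genes did. Without the Tac2-led and Oxt-led clusters, the Pdyn difference was -1.55 ± 0.26 and the Pnoc difference 1.40 ± 0.24, with edgeR adjusted p-values of 5.1e-05 and 1.1e-04. Penk, Oprl1 and Oprk1 had log2 differences of -0.50 ± 0.23, -0.49 ± 0.17 and -0.14 ± 0.23 and did not pass (edgeR adjusted p = 0.221, 0.0802 and 0.803). Without the same clusters, where 10.3% of genes passed, Penk (-0.92 ± 0.24, edgeR adjusted p = 0.0105) and Oprl1 (-0.63 ± 0.19, adjusted p = 0.0279) were past the threshold. For Penk the direction was 0.14 with edgeR when the class was taken from clusters, so it depended on how neurons were classed.

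The precursors differed in how many UMIs a positive neuron held. For Penk, 25 neurons with at least 10 UMIs held 411 UMIs, 42.8% of its neuronal total, and the highest neuron held 40. For Pdyn, 6 such neurons held 120 of 707 UMIs, with a highest count of 39. The highest count was 13 for Pnoc, 5 for Oprk1 and 3 for Oprl1, and 84.8% of Oprl1-positive neurons held 1 UMI.

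At least 1 precursor was found in 777 neurons (25.3%), at least 1 receptor in 656 (21.3%) and a precursor together with a receptor in 243 (7.91%). The 1884 neurons with no opioid UMI had a median of 1017 UMIs, and the 1190 with any had 2648.5, so neurons with an opioid UMI were the deeper ones. UMIs of 2 precursors were found in 54 neurons and of all 3 in 2 neurons. Pdyn and its receptor Oprk1 were found together in 48 neurons, 16.8% of Pdyn-positive and 18.5% of Oprk1-positive ones, in all 6 libraries, with a median depth of 5048 UMIs. Pnoc and its receptor Oprl1 were together in 57 of the 272 Pnoc-positive and 433 Oprl1-positive neurons. Other pairs reached like counts, with Pdyn and Oprl1 in 70 neurons, Oprk1 and Oprl1 in 58 and Penk and Oprl1 in 48. Penk with Oprk1 and Pnoc with Oprk1 were lower, in 31 neurons each. A peptide and its own receptor were thus not the most frequent pair by count. These counts depend on how many neurons held each gene. Of Oprk1-positive neurons, 18.5% held Pdyn, 12.0% Penk and 12.0% Pnoc. Of Oprl1-positive neurons, 16.2% held Pdyn, 13.2% Pnoc and 11.1% Penk. Whether any pair was more frequent than gene frequency and depth would give was not tested.

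Across the 17 neuron clusters, the genes with the pattern most like each opioid gene were found by Pearson's r of log2(CPM + 10) among 6321 genes with at least 200 UMIs in neurons. They were Sox2 (r = 0.854), Nxph1 and Epha5 for Penk, and Trpc5 (r = 0.862), Ddah1 and Ddost for Pdyn. They were Rtf1 (r = 0.768), Fbxo34 and Tmem87b for Pnoc, Tmem91 (r = 0.840), Ptprt and Sorcs1 for Oprk1, and Ddx27 (r = 0.892), Tub and Arhgef4 for Oprl1. Among the opioid genes, Oprk1 and Oprl1 had the highest r (0.756), followed by Pdyn and Oprk1 (0.649), and Pdyn and Pnoc the lowest (0.03). The clusters share libraries and differ in depth, and these values are descriptions.

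The design asks whether loss of IDOL changed gene expression in the hypothalamus. In neurons as a whole, no opioid gene passed the test between KO and WT. Penk was at 112, 167 and 67.3 CPM in KO1, KO2 and KO3, against 162, 156 and 163 CPM in WT1, WT2 and WT3. KO1 and KO3 were below the narrow WT range and KO2 above it. Pdyn was at 94.9, 65.5 and 113 CPM in the KO libraries, against 150, 75.8 and 52.2 CPM in the WT libraries. Pnoc was at 52.4, 91.1 and 67.3 CPM in the KO libraries, against 70.0, 46.6 and 63.0 CPM in the WT libraries. For both genes the KO and WT libraries were interleaved.

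For the receptors, Oprk1 was at 51.6, 62.1 and 52.1 CPM in the KO libraries, against 55.7, 55.4 and 63.0 CPM in the WT libraries, with overlap. Oprl1 was at 63.7, 59.7 and 81.4 CPM in the KO libraries, against 80.6, 64.1 and 98.3 CPM in the WT libraries, and the genotypes overlapped again. Oprm1 had 3, 3 and 2 UMIs in the KO libraries, against 11, 0 and 3 in the WT libraries, and Oprd1 had 3, 4 and 1, against 3, 0 and 1. None of the 7 genes separated the genotypes, where 9.71% of 12095 genes with at least 20 UMIs in neurons did.

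The edgeR log2 fold changes of KO over WT in neurons were -0.45 ± 0.22 for Penk (adjusted p = 0.988), -0.12 ± 0.27 for Pdyn, 0.20 ± 0.22 for Pnoc, -0.05 ± 0.20 for Oprk1 and -0.24 ± 0.20 for Oprl1. Of the 5 genes that passed the filter, 0 passed the test in edgeR, DESeq2 or at an unadjusted p of 0.05, where edgeR called 0.0307% of the 9783 genes tested (3 genes). The smallest unadjusted edgeR p of the 5 was 0.0556, for Penk, and it depended on the settings given below. At an unadjusted p of 0.05 edgeR had 440 genes (4.50%). Over all cells the log2 fold changes were -0.48 ± 0.26 for Penk, -0.28 ± 0.46 for Pdyn, 0.08 ± 0.28 for Pnoc, -0.19 ± 0.24 for Oprk1 and -0.16 ± 0.22 for Oprl1. There edgeR called 0% of 13059 genes, with 268 at an unadjusted p of 0.05 and 4 genes called by DESeq2. Mylip, the knocked-out gene, was itself not called by edgeR over all cells (log2 fold change -6.03 ± 0.65, adjusted p = 0.0869). The lack of a call over all cells therefore does not show that a level was unchanged. Leaving out a library moved the Pdyn value in neurons from -0.36 to 0.49, with the highest value without WT1, which holds 313 of the 707 Pdyn UMIs, and to 0.08 without KO2.

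The share of neurons with a UMI gave no separation either. Penk was in 7.17%, 11.2% and 6.79% of neurons in the KO libraries, against 10.6%, 7.21% and 9.09% in the WT libraries. Oprl1 was in 13.4%, 10.2% and 14.3% of neurons in the KO libraries, against 17.4%, 10.8% and 18.2% in the WT libraries. The 2-sided exact permutation p was 0.8 for Penk, Pdyn and Pnoc, 0.4 for Oprm1 and Oprk1, and 0.3 for Oprd1 and Oprl1, where 3 against 3 libraries allow no p below 0.1.

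**Figure D4:**
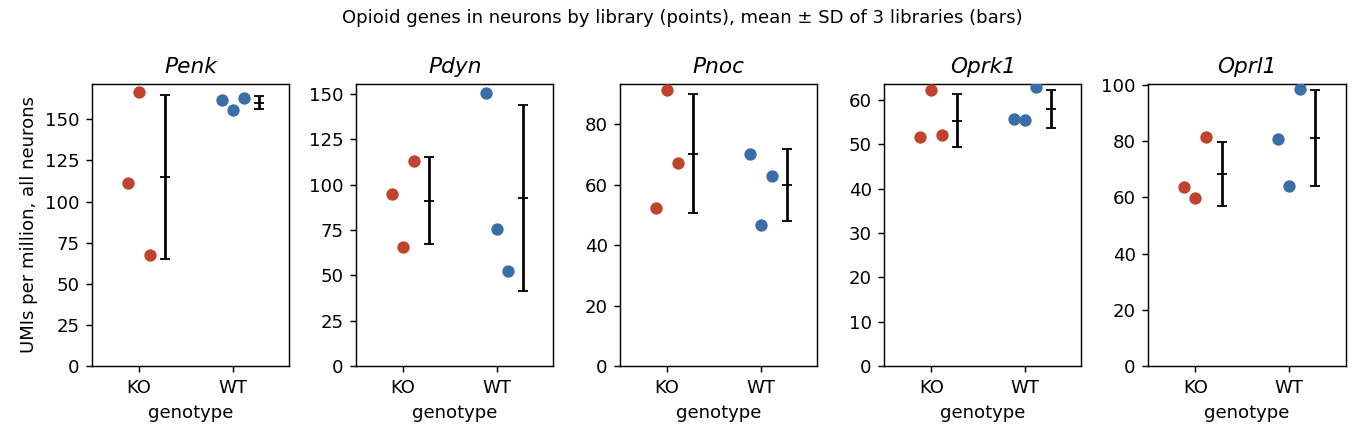
Level of 5 opioid genes in neurons, in CPM, with a point per library, KO left of WT, and the mean ± SD of 3 libraries beside the points. KO and WT points overlap for each gene, and for Penk the KO libraries lie between 67.3 and 167 CPM and the WT libraries between 156 and 163 CPM.

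The Penk levels of the genotypes did not overlap in glutamate-marker neurons, a comparison chosen after the values had been seen. Penk was at 159, 124 and 27.8 CPM in glutamate-marker neurons of KO1, KO2 and KO3, against 304, 318 and 173 CPM in WT1, WT2 and WT3, from 50, 30 and 7 UMIs in the KO libraries and 162, 43 and 27 in the WT libraries. All KO libraries lay below all WT libraries, as 4.79% of 8973 genes with at least 20 UMIs did. The share of these neurons with a Penk UMI was 7.14%, 12.0% and 6.25% in the KO libraries, against 15.3%, 14.9% and 15.1% in the WT libraries (2-sided exact permutation p = 0.1, the smallest that 3 against 3 allow). At 500 UMIs a cell, the shares overlapped, at 4.35%, 7.45% and 2.56% in the KO libraries and 7.91%, 9.52% and 6.25% in the WT libraries (exact permutation p = 0.2). The neurons numbered 98, 100 and 80 in the KO libraries and 144, 47 and 53 in the WT libraries, and their highest counts were 18, 14 and 3 Penk UMIs in KO neurons and 40, 25 and 10 in WT neurons.

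The edgeR log2 fold change of Penk in glutamate-marker neurons was -1.35 ± 0.35 (KO over WT). It did not pass after adjustment over 5113 genes (edgeR adjusted p = 0.775). Its unadjusted edgeR p was 9.1e-04, in a comparison chosen after the values had been seen. There edgeR called 0% of the genes, with 237 at an unadjusted p of 0.05, and DESeq2 gave Penk an adjusted p of 0.999. In GABA-marker neurons Penk was at 109, 225 and 89.7 CPM in the KO libraries, against 99.9, 124 and 199 CPM in the WT libraries, which overlapped, with an edgeR log2 fold change of 0.09 ± 0.28 (adjusted p = 0.994, with 0.0376% of 7970 genes called). The difference between these fold changes, glutamate-marker less GABA-marker, was -1.49 ± 0.36 (edgeR adjusted p = 0.350), where 0% of 7458 genes were called by edgeR and 297 had an unadjusted p under 0.05. It was past the threshold without KO1 (-2.19, edgeR adjusted p = 0.00198) or without WT3 (-1.89, edgeR adjusted p = 0.0110).

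The Penk levels of the genotypes were apart in the Tac1-, Slc17a6- and Adcyap1-led cluster, whose 179 neurons held 226 Penk UMIs. This cluster shares neurons with the glutamate-marker set above, as counted below, so these separations are not independent. There Penk was at 196, 31.3 and 13.5 CPM in KO1, KO2 and KO3, against 613, 421 and 316 CPM in WT1, WT2 and WT3. The UMIs numbered 21, 3 and 1 in 7, 2 and 1 neurons of the KO libraries, against 150, 25 and 26 in 14, 1 and 5 neurons of the WT libraries, so the WT2 level is that of 1 neuron. Oprl1 in the same cluster was at 74.5, 83.5 and 94.5 CPM in the KO libraries, against 135, 152 and 122 CPM in the WT libraries. These were the 2 of 31 combinations of an opioid gene and a cluster in which the genotypes did not overlap. The combinations covered 8 clusters with at least 10 neurons in each library and at least 20 UMIs of the gene. Between 8.15% and 11.8% of all genes did not overlap in these clusters, with 11.8% in the Tac1-led cluster. The 2 of 31 did not exceed these shares. Over all glutamate-marker neurons, Oprl1 was at 79.3, 70.3 and 75.5 CPM in the KO libraries, against 112, 81.5 and 103 CPM in the WT libraries (edgeR log2 fold change -0.45 ± 0.27, adjusted p = 0.962). The shares of these neurons with an Oprl1 UMI overlapped, with means of 18.9% in KO and 24.1% in WT libraries (exact permutation p = 0.4). After thinning the shares also overlapped, and the direction of the means turned, at 4.36% in KO and 4.10% in WT libraries. The Tac1-led cluster gave 20, 20 and 16 of the glutamate-marker neurons in KO1, KO2 and KO3, against 45, 7 and 10 in WT1, WT2 and WT3, and the part of this in the levels was not tested.

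**Figure D5:**
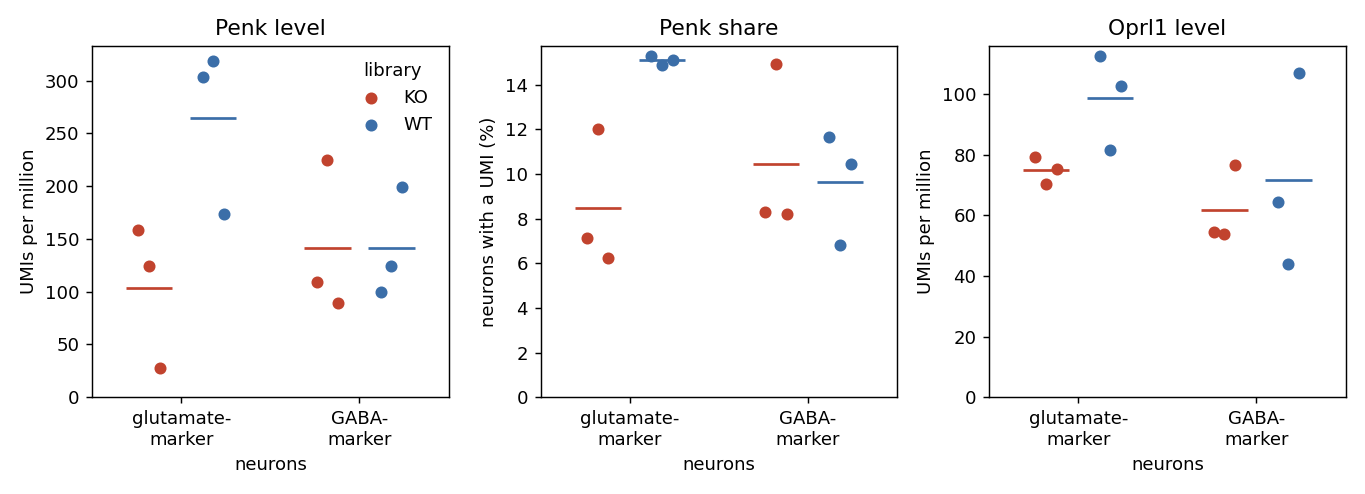
Penk level (CPM), share of neurons with a Penk UMI (percent) and Oprl1 level (CPM) in glutamate-marker and GABA-marker neurons, with a point per library, KO left of WT, and lines at the mean of 3 libraries. In glutamate-marker neurons Penk lies between 27.8 and 159 CPM in KO libraries and between 173 and 318 CPM in WT libraries, and in GABA-marker neurons the genotypes overlap.

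Outside neurons, Oprl1 had the opposite direction, in a comparison also chosen after the values had been seen. It was at 11.5, 6.49 and 11.1 CPM in the KO libraries, against 3.85, 3.62 and 3.38 CPM in the WT libraries. These levels come from 13, 10 and 20 UMIs in KO1, KO2 and KO3, against 6, 3 and 4 in WT1, WT2 and WT3. Oprl1 did not pass the filter on low counts outside neurons or in OPC, so both tests were made without it. All KO libraries were above all WT libraries, as 4.15% of 13642 genes were. The edgeR log2 fold change was 1.39 ± 0.50 (adjusted p = 0.999), where 0.0112% of 17830 genes were called. OPC held 37 of these 56 UMIs. In OPC, Oprl1 was at 82.0, 81.8 and 102 CPM in KO1, KO2 and KO3 (7, 8 and 13 UMIs in 97, 137 and 134 cells), against 57.8, 37.8 and 28.0 CPM in WT1, WT2 and WT3 (5, 2 and 2 UMIs in 89, 58 and 73 cells). All KO libraries were again above all WT libraries, as 5.95% of 5882 genes were, and edgeR gave a log2 fold change of 1.11 ± 0.57 that did not pass (adjusted p = 0.912, with 0.0149% of 13378 genes called).

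The genes around the opioid peptides and receptors were taken from 6 lists with 81 genes. In neurons over other cells, 44 of 67 tested genes were higher and 9 lower in edgeR, where 35.9% of all genes tested were higher and 37.6% lower. The precursor-processing list, with the convertases and granins of dense-core vesicles, had 12 higher and 3 lower of 15, with a median log2 difference of 2.30, against 0.00 over all genes. The channels and cyclases downstream of the receptors had 11 higher and 1 lower of 15, and the desensitization list, with arrestins, receptor kinases and RGS proteins, also 11 higher and 1 lower of 15. Inhibitory G proteins had 6 higher and 2 lower of 10, peptidases 2 higher and 1 lower of 7, and the other opioid-related genes 2 higher and 1 lower of 5. In GABA-marker over glutamate-marker neurons, 4 of 56 tested genes were higher and 6 lower, with 1 higher and 4 lower in the processing list, where 3.11% of all genes tested were higher and 4.39% lower.

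Between KO and WT in neurons, 0 of 68 tested genes of the 6 lists passed in edgeR or in DESeq2, and 9 had an unadjusted p under 0.05 in edgeR, against 4.50% of all genes. The genotypes did not overlap for 10 of the 68 (14.7%), 5 higher and 5 lower in KO, where 9.71% of all genes with at least 20 UMIs did not overlap. Median log2 fold changes were -0.06 for processing, -0.13 for peptidases, 0.02 for G proteins, 0.18 for channels and cyclases, -0.03 for desensitization and -0.47 for the other opioid-related genes, against 0.00 over all genes. The smallest p was that of Pomc, the precursor of beta-endorphin, at 534, 187 and 412 CPM in the KO libraries, against 462, 1120 and 954 CPM in the WT libraries (edgeR log2 fold change -1.14 ± 0.30, adjusted p = 0.719). KO1 lay within the WT range and the others below it. Pcsk1, the convertase that makes the first cuts in precursors, was at 105, 79.5 and 83.5 CPM in the KO libraries, against 166, 137 and 109 CPM in the WT libraries, with no overlap but no call (-0.63 ± 0.19, edgeR adjusted p = 0.988).

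Pcsk2, the later-acting convertase, was at 255, 278 and 248 CPM in the KO libraries, against 207, 217 and 192 CPM in the WT libraries, also without overlap and without a call (0.35 ± 0.16, edgeR adjusted p = 0.988). Chga, a granin, had a log2 fold change of 0.65 ± 0.28, with KO1 at 1414 CPM and the other 5 libraries between 419 and 587 CPM. The peptidases with the smallest p were Thop1 (-0.65 ± 0.31), Nln (-0.35) and Ece1 (0.24), and the G protein subunits Gnb1 (0.42 ± 0.18), Gng3 (-0.31) and Gnai1 (-0.19). For adenylyl cyclases they were Adcy5 (0.51 ± 0.23), Adcy3 (0.41) and Adcy2 (0.27), for desensitization Gpr158 (-0.46), Adrbk1 (0.39) and Arrb1 (0.39), and for the last list Ogfrl1 (0.35) after Pomc. All of these had an edgeR adjusted p of 0.988.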

How the data were processed

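The authors deposited UMI counts, not normalized, of each gene in each barcode for 6 Drop-seq libraries (3 KO, 3 WT). The submitters' processing notes name bcl2fastq, STAR 2.5.0c, mm10 and GRCm38. The counting program, annotation and strand are not given in the sources used here. Symbols were matched to GENCODE M21 (17085 of 18204). Cells with at least 300 genes and at most 20% mitochondrial UMIs were kept, 116 doublets called by Scrublet (scanpy 1.11.5) were removed, and cells were clustered (Leiden, resolution 1, leidenalg 0.10.2) without the opioid genes. Of all barcodes, 3 were shared between libraries. A class name required that 3 of its markers exceed the median cluster by 4-fold. A neuron cluster of 46 cells led by glial genes was left out of neurons, a rule set after seeing the data.

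UMIs were summed per library and tested with edgeR 4.0.16 (R 4.3.3, filterByExpr, TMM, quasi-likelihood test, Benjamini-Hochberg over all genes tested at 0.05). DESeq2 1.42.0 was an alternative. The SE given with an edgeR log2 fold change is its absolute value divided by the square root of the quasi-likelihood F statistic. It is not an error fitted by the model. Comparisons outside neurons, in OPC and within transmitter classes were added after seeing the values. The first and second had no gene filter, because the filter leaves Oprl1 out of both. On simulated counts with 200 genes changed by a log2 of 2, the test of KO against WT in neurons called 185 of them and 9 others among 9783 genes. Intervals are exact binomial ones at 95%, and a count of 0 allows up to 3 counts. Cells were thinned to 500 UMIs for shares across depths. Members and lists were chosen with earlier results of these data known. The text names the opioid genes, Mylip, up to 3 genes per list with the smallest p in neurons, and the 3 genes most like each opioid gene across clusters. Krtap19-2, Krtap19-4, Ipcef1 and A830012C17Rik were named after their values were seen. A neuron cluster, a gene of the lists and a sequence are not reported here.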

Additional observations from a re-analysis of the deposited data

How the results depend on the processing

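Under the 14 settings tried, Pdyn, Pnoc, Oprk1, Oprl1 and Penk stayed higher in neurons than in other cells, and Pdyn and Pnoc kept their calls between GABA-marker and glutamate-marker neurons under 13 settings. The cause of the changes below was not tested. The count of called genes between KO and WT in neurons was 3, against 34 without a gene filter, 9 with the replicate block and 1 to 8 with a library left out. Over all cells it was 0, against 4 with DESeq2, 1 without a gene filter, 1 with the replicate block and 0 to 1 with a library left out. Between GABA-marker and glutamate-marker neurons it was 490, against 210 with DESeq2 and 289 to 507 with a library left out. For neurons against other cells a library left out gave 7841 to 8233. The labels did not state whether replicate numbers pair the libraries. Correlations of same-numbered deviations were -0.07, -0.01 and 0.15 in neurons and 0.25, -0.15 and 0.23 over all cells. The same-numbered WT library had the highest correlation for KO3 in neurons and for KO1 and KO3 over all cells. With so few libraries these values cannot decide whether they are paired. With the replicate block, Penk in glutamate-marker neurons was -1.37 with an edgeR adjusted p of 0.0183, and its adjusted p ranged from 0.121 to 0.983 with a library left out (-1.85 to -0.92). In all neurons, Penk was -0.79 to -0.19 under 17 settings, with a lowest adjusted p of 0.687. Its unadjusted edgeR p was 0.0134 without a gene filter, 0.0130 with the replicate block and 0.0381 without the Tac2-led and Oxt-led clusters. It was 0.0738 in edgeR without neuron clusters of 1 library and 0.0688 in DESeq2.

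Directions turned as follows. Between GABA-marker and glutamate-marker neurons, Penk was 0.14 by cluster class, and Oprk1 was 0.034 without the Tac2-led and Oxt-led clusters. Penk was called without a gene filter (-0.45, edgeR adjusted p = 0.0143). With a library left out, the lowest edgeR adjusted p was 0.0405 for Penk, without KO2, and 0.0479 for Oprl1, without WT3, and Oprk1 ranged from -0.36 to 0.20. After thinning, the KO less WT share was -0.12 percentage points for Oprd1 and 0.15 for Oprk1. With a library left out, KO over WT in neurons ranged from -0.13 to 0.014 for Oprk1, -0.36 to 0.49 for Pdyn and -0.030 to 0.37 for Pnoc. Over all cells it ranged from -0.28 to 0.022 for Oprl1, -0.63 to 0.50 for Pdyn and -0.16 to 0.42 for Pnoc. Penk in GABA-marker neurons ranged from -0.41 to 0.39. The KO less WT share ranged from -2.17 to 1.31 percentage points for Pdyn and -1.98 to 0.22 for Penk. The counts of Oprm1 and Oprd1 were too low for a test, and levels in clusters of few neurons rest on few UMIs.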
